A study of Homo sapiens with 9 samples.

Results

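The genes described here are 3 colony-stimulating factors (CSF1, CSF2 and CSF3) and 6 genes of the interleukin-1 (IL-1) system (IL1A, IL1B, IL18, IL1RN, IL1R1 and IL1RAP) in MDA-MB-231 cells given 2-deoxyglucose (2-DG). They were taken by gene name, and all 9 were found among the 61552 genes listed and passed the filter on low values that left 16565 genes for testing. By role they are 6 ligands, 1 receptor antagonist and 2 receptor chains. The names were proposed with earlier results of these same libraries known, in which CSF2, CSF3 and IL1B were already called lower under 2-DG, and CSF3 is also one of the genes that the study picked from its 2-DG and lactate experiments. The differences of the 9 genes between doses are therefore given as a description, with no test.

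MDA-MB-231 is an established human triple-negative breast cancer (TNBC) line, labelled WT for genotype, and was grown in DMEM with fetal serum. RNA was sequenced after 24 h without 2-DG (phosphate-buffered saline, the control), with 10 mM 2-DG or with 20 mM 2-DG, in 3 libraries each, all from this 1 line in culture. 2-DG resembles glucose, enters cells through the same transporters and slows glycolysis. The paper's methods state that RNA came from 3 sample replicates per condition, and no label says that these were separate cultures. A p-value therefore measures only the spread between these libraries, which may be technical.

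Colony-stimulating factors are secreted proteins that keep myeloid cells alive and make them divide and mature. CSF1 (M-CSF) acts on monocytes and macrophages, CSF2 (GM-CSF) on granulocytes, macrophages and dendritic cells, and CSF3 (G-CSF) on neutrophils. IL-1 alpha (IL1A) and IL-1 beta (IL1B) are agonists of 1 shared receptor, which is built of IL1R1 and the accessory chain IL1RAP and signals through MYD88 to NF-kB, while IL1RN encodes the antagonist that occupies IL1R1 without signalling. IL18 belongs to the same cytokine family but uses its own receptor, and both pro-IL-1 beta and pro-IL-18 are cut by caspase 1. Tumor cells are a known source of several of these factors, and messages of CSF2 and IL1B are textbook examples of short-lived RNAs with AU-rich elements in the 3′ untranslated region.

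AU-rich elements are made of repeats of ATTTA (with U for T in the RNA), and the longest annotated 3′ untranslated region of each gene (GENCODE release 29, GRCh38) was searched for it. The windows below, of 30 bases on the gene's own strand, hold the densest run of ATTTA in the 3 genes that were most lowered and in IL1A, with ATTTA in capitals.
CSF2: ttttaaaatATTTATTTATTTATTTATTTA
IL1B: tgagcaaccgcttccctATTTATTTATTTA
CSF3: tcccatgtATTTAtctctATTTAatATTTA
IL1A: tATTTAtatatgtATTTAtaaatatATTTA
They lie at chr5:132076072-132076101 (plus strand, CSF2), chr2:112830003-112830032 (minus strand, IL1B), chr17:40016975-40017004 (plus strand, CSF3) and chr2:112774424-112774453 (minus strand, IL1A). CSF2 held 8 copies in 318 bases, which is 25.2 per kb, and only 0.115% of the 19140 genes with an annotated 3′ untranslated region were at least that dense. IL1B held 6 copies in 610 bases (9.84 per kb, 1.29% of genes at least as dense) and CSF3 held 7 in 854 bases (8.2 per kb, 2.13%). The median gene had 2 copies and 1.48 per kb. The other 6 genes were sparser, with 4.34 per kb in IL1A, 2.57 in IL1R1, 1.86 in CSF1, 1.27 in IL1RAP and no copy in IL18 or IL1RN. The longer core TTATTTATT, which overlaps ATTTA, occurred 3 times in CSF2, 2 times in IL1B and in none of the other 7 genes, against 8.21% of all genes with at least 1 copy. A match is a description of the letters and not of RNA stability, which was not measured.

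The stretch before the start site is shown for CSF2, for IL1B and for IL1A, which lies beside IL1B and differed far less (RefSeq, GRCh38.p14, 5′ to 3′ on the gene's strand). Capitals mark matches, on either strand, to the AP-1 motif TGANTCA, the C/EBP motif TTNNGNAA or the TATA box TATAAA, which do not overlap each other in these 3 stretches.
CSF2: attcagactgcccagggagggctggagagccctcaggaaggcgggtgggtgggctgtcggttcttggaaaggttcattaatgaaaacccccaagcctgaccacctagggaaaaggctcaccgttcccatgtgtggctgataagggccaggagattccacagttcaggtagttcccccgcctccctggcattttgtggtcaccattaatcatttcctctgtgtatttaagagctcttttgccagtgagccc
IL1B: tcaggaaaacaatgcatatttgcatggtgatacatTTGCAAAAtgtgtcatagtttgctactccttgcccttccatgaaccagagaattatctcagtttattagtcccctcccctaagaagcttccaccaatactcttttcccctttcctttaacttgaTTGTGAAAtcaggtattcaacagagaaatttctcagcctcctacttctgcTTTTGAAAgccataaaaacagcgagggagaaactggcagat
IL1A: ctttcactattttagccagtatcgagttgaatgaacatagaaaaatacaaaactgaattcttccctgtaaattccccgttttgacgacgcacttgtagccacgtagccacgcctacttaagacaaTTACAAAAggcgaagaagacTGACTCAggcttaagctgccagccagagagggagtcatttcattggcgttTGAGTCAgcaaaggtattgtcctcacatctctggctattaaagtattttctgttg
These are chr5:132073539-132073788 on the plus strand, chr2:112836780-112837029 on the minus strand and chr2:112784401-112784650 on the minus strand. CSF2 had no match to any of these motifs, IL1B had 3 C/EBP matches, and IL1A had 2 AP-1 matches and 1 C/EBP match. A second start site listed for IL1A has a stretch that overlaps this one (chr2:112784494-112784743, not printed), with 1 AP-1, 2 C/EBP and 1 TATA box match. Over 35116 stretches of the same length, 6.57% held the AP-1 motif, 33.2% the C/EBP motif and 10.7% the TATA box. The NF-kB consensus was found in 9.96% of all stretches and in none of the 12 stretches listed for 6 of the 9 genes. No stretch was given for CSF1, CSF3 and IL18. The absence of these letters in a window says nothing about binding of the factors.

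The libraries held between 30974968 and 40843638 counted reads, and the ranges of the 3 groups overlapped. Levels are in FPKM, that is counts scaled by gene length and library total, so levels of different genes can be set side by side. VIM, KRT18, CD44, EGFR and CAV1, which this line is known to express, summed to between 528 and 642 FPKM, whereas ESR1 and PGR did not exceed 0.0204 FPKM in any library and ERBB2 lay between 5.53 and 9.11. A list of 7 leukocyte markers summed to between 3.17 and 4.66 FPKM in the control, between 1.97 and 3.20 at 10 mM and between 1.35 and 2.33 at 20 mM, most of it CD14, so this sum moved in the same direction as the ligands, and 5 of the 7 markers stayed under 0.5 FPKM in every library. The pan-leukocyte marker PTPRC did not exceed 0.0327 FPKM, CD3E did not exceed 0.0109 and MS4A1 was listed at 0 in all 9 libraries. Fibroblast markers (4 genes) summed to between 1.22 and 1.93 FPKM and endothelial markers (3 genes) to between 0.854 and 1.95 over all libraries.

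In the control the 9 genes spanned more than 3 orders of magnitude. CSF2 and CSF1 stood above 99.6% and 99.2% of the genes tested, IL1B and IL18 lay between 14.3 and 35.5 FPKM, CSF3, IL1A and IL1R1 between 2.65 and 10.4, and IL1RAP and IL1RN below 1. Under 2-DG the order changed at several places: CSF1 moved above CSF2, IL18 moved above IL1B, and CSF3 dropped below IL1R1 at 10 mM and below IL1RAP at 20 mM. Neighbours in this order had ranges that did not overlap in any group, except IL1A and IL1R1 at 20 mM.

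**Figure D1:**
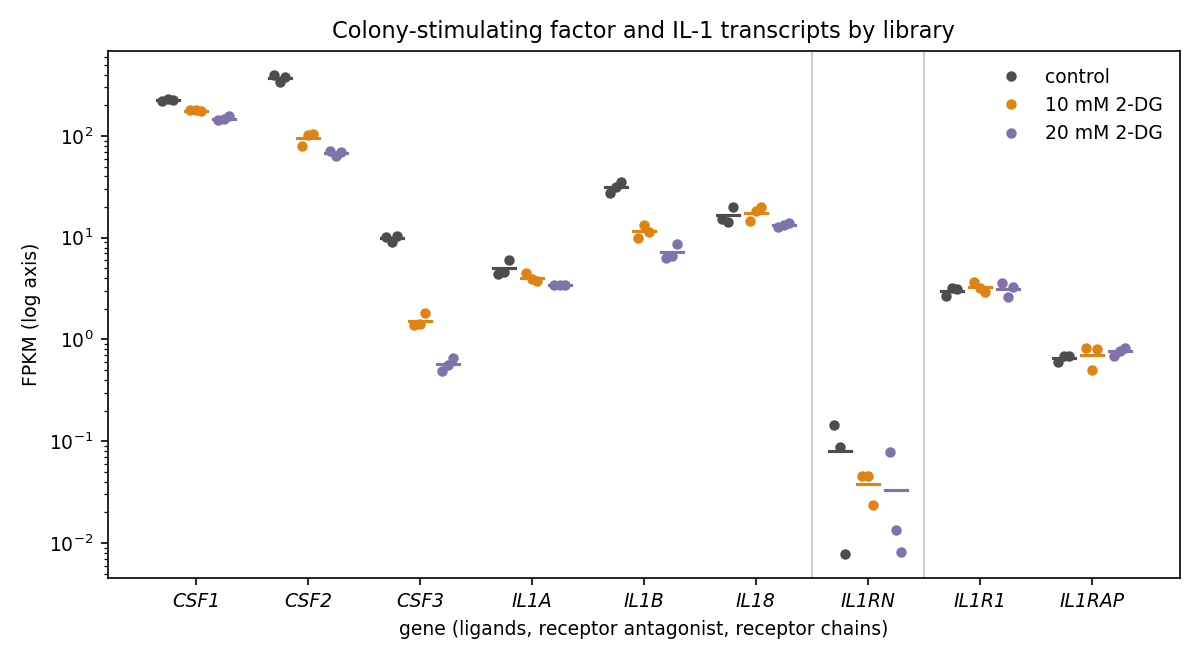
Levels of the 9 genes in each of the 9 libraries, in FPKM on a log axis, with points for single libraries and a bar for the mean of 3; gray lines separate the ligands (left), the receptor antagonist and the receptor chains (right). CSF2, CSF3 and IL1B sit lower in every 2-DG library than in every control library, while IL1R1 overlaps between all groups.

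CSF2 (ENSG00000164400, chromosome 5, 132073790 to 132076170, plus strand) was the most abundant of these messages in the control. It read 400 FPKM, 339 FPKM and 377 FPKM in the control libraries, 79.7 FPKM, 102 FPKM and 106 FPKM at 10 mM, and 71.7 FPKM, 63.1 FPKM and 70.3 FPKM at 20 mM. The 3 groups did not overlap, and the lowest control library was 3.21-fold above the highest 2-DG library. Means were 372 ± 31.0 FPKM (SD, n = 3) in the control, 95.7 ± 14.0 with 10 mM and 68.3 ± 4.6 with 20 mM, that is 3.89-fold and 5.44-fold lower. On the log2(FPKM + 1) scale the change was -1.95 at 10 mM and -2.43 at 20 mM (SE 0.109 each), and 20 mM differed from 10 mM by -0.47.

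CSF3 (ENSG00000108342, chromosome 17, 40015361 to 40017813, plus strand) had the lowest log2 fold change of FPKM + 1 of all 16565 genes at 20 mM and the second lowest at 10 mM. These ranks depend on the pseudocount, which shrinks the changes of genes at low FPKM. Its control libraries held 10.2 FPKM, 9.12 FPKM and 10.4 FPKM. At 10 mM it read 1.37 FPKM, 1.41 FPKM and 1.82 FPKM, and at 20 mM 0.494 FPKM, 0.566 FPKM and 0.654 FPKM. No group overlapped another, and each step of dose lowered the range. The mean fell from 9.93 ± 0.709 FPKM to 1.53 ± 0.249 and 0.572 ± 0.0799 (SD, n = 3), a ratio of 6.47-fold at 10 mM and 17.4-fold at 20 mM. The log2 changes of FPKM + 1 were -2.11 and -2.80 (SE 0.0993). The pseudocount shrinks them, since the log2 ratios of the mean FPKM were -2.69 and -4.12, and the 20 mM value rests on 132 recovered reads in 3 libraries.

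CSF1 (ENSG00000184371, chromosome 1, 109910242 to 109930992, plus strand) was lowered far less. It read 218 FPKM, 229 FPKM and 225 FPKM in the control, 178 FPKM, 181 FPKM and 175 FPKM at 10 mM, and 143 FPKM, 146 FPKM and 156 FPKM at 20 mM. The groups were again apart, but the steps were small, with a mean of 224 ± 5.5 FPKM (SD, n = 3) in the control, 178 ± 3.00 with 10 mM and 148 ± 6.62 with 20 mM. The log2 changes were -0.33 and -0.59 (SE 0.0564).

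Because CSF2 was lowered more than CSF1, the makeup of the 3 messages changed. Their summed level was 606 ± 26.3 FPKM in the control, 275 ± 13.7 with 10 mM and 217 ± 8.86 with 20 mM (SD, n = 3). CSF2 made up between 58.7% and 63.6% of this sum in the control libraries, between 30.8% and 37.4% at 10 mM and between 30.2% and 33.2% at 20 mM. CSF1 correspondingly made up 37.1% ± 2.52, 64.8% ± 3.54 and 68.3% ± 1.57, and CSF3 1.64% ± 0.0621, 0.557% ± 0.0782 and 0.263% ± 0.0303. The log2 ratio of CSF2 to CSF1 went from 0.73 ± 0.157 in the control to -0.90 ± 0.227 and -1.12 ± 0.106, with its sign changed in all 6 2-DG libraries. CSF3 fell behind CSF2 as well, with log2 ratios of -5.23 ± 0.0558, -5.96 ± 0.181 and -6.91 ± 0.235.

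**Figure D2:**
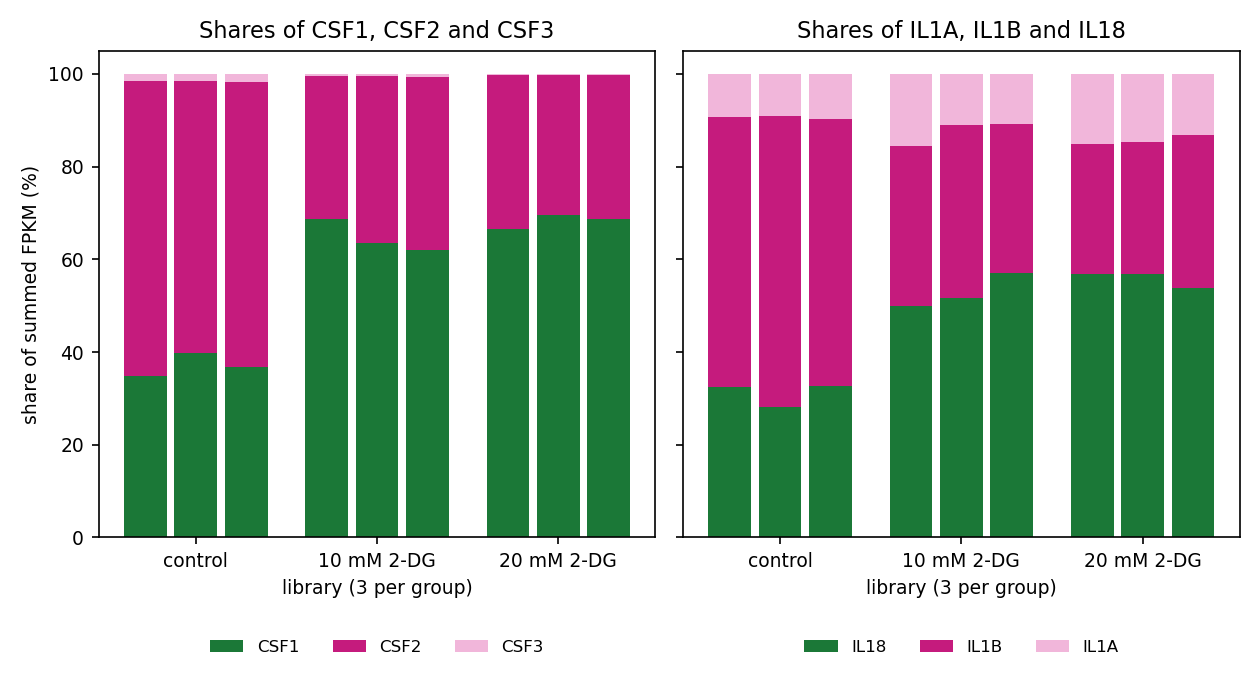
Share of each gene in the summed FPKM of CSF1, CSF2 and CSF3 (left) and of IL1A, IL1B and IL18 (right), in percent, with 1 stacked bar per library and 3 libraries per group. CSF2 and IL1B hold the largest share in every control library, and CSF1 and IL18 in every 2-DG library.

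IL1B (ENSG00000125538, chromosome 2, 112829751 to 112836903, minus strand) was the most abundant IL-1 message in the control. It read 27.8 FPKM, 31.7 FPKM and 35.5 FPKM there, 10.0 FPKM, 13.3 FPKM and 11.3 FPKM at 10 mM, and 6.36 FPKM, 6.63 FPKM and 8.68 FPKM at 20 mM. The 3 ranges were apart, and the lowest control library was 2.09-fold above the highest 2-DG library. The means of 31.7 ± 3.86, 11.5 ± 1.66 and 7.22 ± 1.26 FPKM (SD, n = 3) correspond to levels 2.74-fold and 4.38-fold lower than in the control. The log2 changes of FPKM + 1 were -1.38 and -1.99 (SE 0.132), at places 57 and 29 from the lowest of all genes tested on that scale.

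IL1A (ENSG00000115008, chromosome 2, 112773915 to 112784590, minus strand), the other agonist, lies 45161 bases from IL1B and was lowered only slightly. It read 4.41 FPKM, 4.56 FPKM and 6.0 FPKM in the control, 4.52 FPKM, 3.90 FPKM and 3.74 FPKM at 10 mM, and 3.39 FPKM, 3.43 FPKM and 3.43 FPKM at 20 mM. The 10 mM and control libraries overlapped, and the 20 mM libraries lay below both. The log2 changes were -0.24 at 10 mM and -0.43 at 20 mM (SE 0.109). At 10 mM the value was -0.12 without control replicate 3, the highest library. CKAP2L, a mitotic spindle gene on the other side of IL1A, fell at both doses (log2 change -1.18, adjusted p = 0.000128 at 10 mM; -1.49, adjusted p = 1.83e-05 at 20 mM; limma), so the genes on both sides of IL1A were lowered more than IL1A.

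IL18 (ENSG00000150782, chromosome 11, 112143251 to 112164117, minus strand) read 15.4 FPKM, 14.3 FPKM and 20.1 FPKM in the control, 14.4 FPKM, 18.4 FPKM and 19.9 FPKM at 10 mM, and 12.9 FPKM, 13.3 FPKM and 14.0 FPKM at 20 mM. At 10 mM it overlapped the control, with a log2 change of 0.08 (-0.02 without control replicate 2, -0.01 without 10 mM replicate 3), whereas at 20 mM all libraries lay below all others, with a change of -0.28 (SE 0.134), or -0.14 without control replicate 3. The control and 20 mM ranges were separated by only the step from 14.0 to 14.3 FPKM. This gap holds for FPKM without further scaling. Dividing by median-ratio factors (1.04 for control replicate 2, 0.992 for 20 mM replicate 3) makes the control and 20 mM ranges overlap. With upper-quartile factors the 20 mM range overlaps both other groups. IL1B made up 59.6% ± 2.78 of the summed FPKM of IL1A, IL1B and IL18 in the control, 34.8% ± 2.55 with 10 mM and 29.9% ± 2.82 with 20 mM (SD, n = 3), while IL18 made up 31.1% ± 2.48, 52.8% ± 3.71 and 55.8% ± 1.82. The log2 ratio of IL1B to IL18 accordingly turned from 0.94 ± 0.184 to -0.60 ± 0.188 and -0.90 ± 0.180.

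The 2 chains of the IL-1 receptor showed no comparable difference. IL1R1 (ENSG00000115594, chromosome 2, 102064544 to 102179874, plus strand), the signalling receptor, read 2.65 FPKM, 3.22 FPKM and 3.13 FPKM in the control, 3.64 FPKM, 3.17 FPKM and 2.93 FPKM at 10 mM, and 3.59 FPKM, 2.59 FPKM and 3.27 FPKM at 20 mM. All 3 groups overlapped, and the log2 changes of 0.09 and 0.05 were below their SE of 0.116. IL1RAP (ENSG00000196083, chromosome 3, 190514051 to 190659750, plus strand), the accessory chain, lay between 0.604 and 0.689 FPKM in the control, between 0.506 and 0.825 at 10 mM and between 0.693 and 0.832 at 20 mM. Its 20 mM libraries were above the control libraries by a narrow margin, with a log2 change of 0.09 (SE 0.0826). The pseudocount shrinks this value, since the log2 ratio of the mean FPKM was 0.21 and limma-voom gave 0.21 (SE 0.183). Directions of other small changes turned with single libraries. On FPKM + 1, IL1R1 at 20 mM read -0.02 without control replicate 1 and -0.03 without 20 mM replicate 1. IL1RAP at 10 mM read -0.01 without 10 mM replicate 1.

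IL1RN (ENSG00000136689, chromosome 2, 113107214 to 113134016, plus strand), the antagonist, was hardly detected. It read 0.143 FPKM, 0.0877 FPKM and 0.00781 FPKM in the control, between 0.0234 and 0.0459 at 10 mM, and between 0.00810 and 0.0778 at 20 mM, on 1 to 19 reads per library. The groups overlapped. By mean FPKM the log2 ratios to the control were -1.05 at 10 mM and -1.26 at 20 mM. The control libraries alone ran from 1 to 19 reads, so these ratios could not be told from the spread between libraries. With limma-voom the changes were -0.43 (SE 0.920) and -1.14 (SE 1.015). The log2 ratio of IL1B to IL1RN, 9.42 ± 2.41 in the control, 8.29 ± 0.577 with 10 mM and 8.45 ± 1.90 with 20 mM (SD, n = 3), therefore carries an error as large as the shifts between groups.

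Set side by side on FPKM + 1, the 6 ligands had a median log2 change of -0.86 at 10 mM (from -2.11 to 0.08) and -1.29 at 20 mM (from -2.80 to -0.28). The ligand median lies between the values of CSF2, CSF3 and IL1B and those of CSF1, IL1A and IL18. The 2 receptor chains, which serve IL1A and IL1B and none of the other ligands here, had 0.06 and 0.07. Receptor chains of the colony-stimulating factors, described below, moved in both directions. By mean FPKM the log2 ratios were -1.23 at both doses for CSF1R, and 0.75 and 0.85 for CSF2RA. The median over all genes tested was -0.011 and -0.021. This scale shrinks changes of genes at low FPKM. By mean FPKM the log2 ratios at 10 mM and 20 mM were 0.11 and 0.07 for IL1R1, and 0.11 and 0.21 for IL1RAP. The log2 ratio of IL1B to IL1R1 was 3.40 ± 0.103 in the control, 1.83 ± 0.320 with 10 mM and 1.20 ± 0.324 with 20 mM (SD, n = 3), and that of IL1A to IL1R1 was 0.72 ± 0.219, 0.32 ± 0.0270 and 0.13 ± 0.25. Mean log2 ratios of IL1R1 to IL1RAP lay between 2.03 and 2.22 in the 3 groups. In bulk RNA, fewer cells that express a gene and less RNA per cell cannot be told apart.

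At an unadjusted p under 0.05 and a change over 2-fold on FPKM + 1, 3 of the 9 genes (CSF2, CSF3 and IL1B) were lower at each dose and none was higher. Over all genes 1.16% were called lower and 0.58% higher at 10 mM, and 1.96% lower and 0.966% higher at 20 mM. The study's methods name the same thresholds, but for DESeq2, so these are not the shares of its own calls. With limma-voom on recovered reads 1192 genes were lower and 925 higher at 20 mM, against 324 and 160 on FPKM + 1. The counts of the 9 genes are printed for scale only, since the genes were proposed from this contrast. The libraries of 10 mM and control did not overlap for 4 genes, all lower at 10 mM, where 22.7% of all genes were lower and 17.8% higher without overlap. At 20 mM they did not overlap for 7 genes, 6 of them lower, against 29.9% lower and 23.3% higher over all genes. IL18, among these 6, overlapped the control once median-ratio or upper-quartile factors were applied. Between 20 mM and 10 mM none of the 9 passed 2-fold on FPKM + 1 (0% of all genes lower, 0.00604% higher). By mean FPKM, CSF3 was 2.69-fold lower at 20 mM than at 10 mM, a log2 ratio of -1.43. All 6 ligands lay lower at 20 mM without overlap (7.14% of all genes lower, 4.71% higher). For IL18 this gap was lost with upper-quartile factors. The log2 differences of FPKM + 1 between the doses ran from -0.69 for CSF3 and -0.61 for IL1B to -0.19 for IL1A (-0.12 without 10 mM replicate 1). No gene reached an adjusted p under 0.05 in that comparison with limma on the 16565 genes (1139 genes at an unadjusted p under 0.05, or 1029 and again 0 adjusted with limma-voom on recovered reads). When all genes above 0 in any library were tested, 3 genes were lower at 20 mM, and without 10 mM replicate 1 there were 1 higher and 3 lower.

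**Figure D3:**
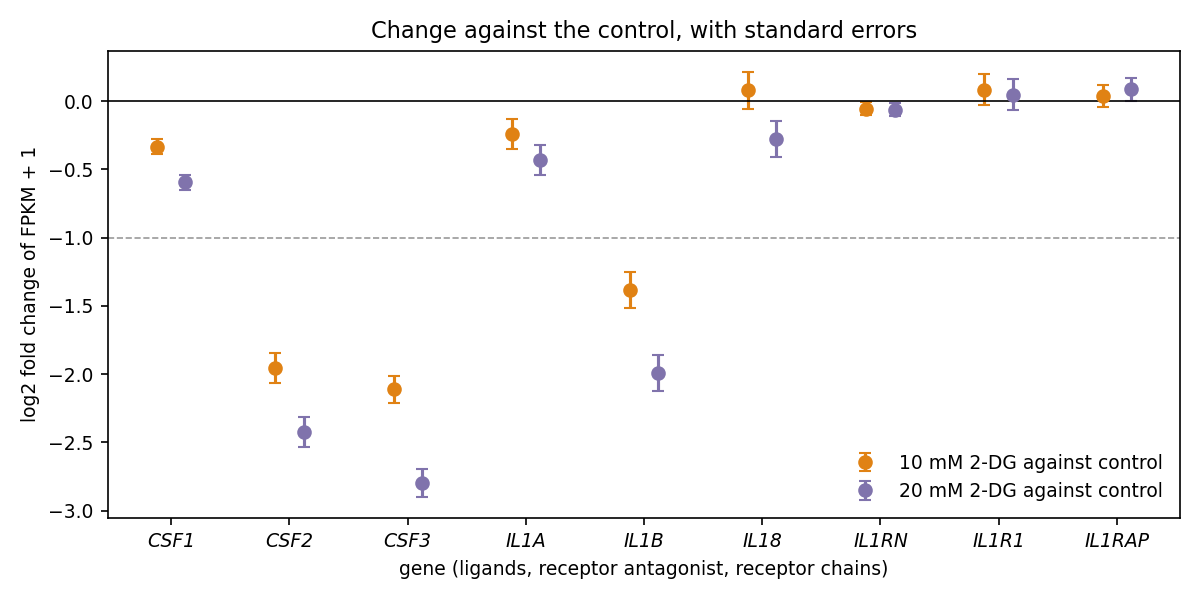
Log2 fold change of FPKM + 1 against the control at 10 mM and 20 mM 2-DG for the 9 genes, with standard errors from the fit to all 9 libraries; the dashed line marks a 2-fold lower level. CSF2, CSF3 and IL1B lie below that line at both doses, the other ligands between it and 0.1, and the receptor chains near 0.

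Other genes around these ligands and receptors were counted in 8 lists of 74 genes, of which 53 passed the filter. At an adjusted p under 0.05 (limma, Benjamini-Hochberg over all genes tested), 7 rose and 11 fell at 10 mM, and 14 rose and 14 fell at 20 mM. The shares over all genes were 12.1% higher and 17.5% lower at 10 mM and 15.4% higher and 21.6% lower at 20 mM. With upper-quartile scaling the split of the listed genes was 11 higher and 9 lower at 10 mM and 14 and 9 at 20 mM, and that of all genes turned from 2009 higher and 2903 lower to 2481 and 2326 at 10 mM and from 2543 and 3581 to 3275 and 2777 at 20 mM. The 2 doses share their control libraries.

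Of the 4 receptor chains for the colony-stimulating factors, 2 were tested and both changed. CSF2RA, the ligand-binding chain for CSF2, rose from 8.98 ± 0.0642 FPKM to 15.1 ± 0.468 and 16.2 ± 0.441 (SD, n = 3), by 0.69 and 0.79 on the log2 scale (adjusted p = 1.81e-05 and 4.84e-06, limma), opposite in direction to its ligand. The signalling chain CSF2RB had 11 reads in all 9 libraries together. CSF1R, the receptor for CSF1, fell from 0.667 ± 0.0552 to 0.284 ± 0.0579 and 0.285 ± 0.147 FPKM (log2 change of FPKM + 1 -0.38 at both doses, log2 ratio of the means -1.23 at both, adjusted p = 0.00580 and 0.00421, limma), and CSF3R was listed at 0 throughout. CSF1R is also 1 of the 7 leukocyte markers above, and the part of such cells in its change was not tested.

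Among other growth factors and family members little was detected. Of 7 other haematopoietic growth factors only KITLG (stem cell factor) passed the filter, and it rose at 20 mM from 0.503 to 0.801 FPKM (0.26, adjusted p = 0.0332, limma). None of 7 other IL-1 family ligands, such as IL33 and the IL-36 cytokines, passed it. Of 9 other receptors and binding proteins 4 were tested and 1 changed, IL1RL2 (the IL-36 receptor chain, next to IL1R1), which rose at 20 mM from 0.805 to 1.56 FPKM (0.53, adjusted p = 0.0381, limma). The decoy receptor IL1R2 had 45 reads in all libraries together, and IL18BP, which neutralizes IL-18, had 1.49 ± 0.205, 1.70 ± 0.563 and 1.61 ± 0.153 FPKM (SD, n = 3). Both calls were lost when single libraries were left out.

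Of 10 genes for the processing of IL-1 and IL-18, 9 were tested. CASP4, an inflammatory caspase, rose by 0.64 and 0.72 and NLRP1, an inflammasome sensor, by 0.55 and 0.67 on the log2 scale (adjusted p between 4.03e-05 and 0.000390, limma). CASP1, the caspase that cuts both cytokines, fell from 0.820 ± 0.0898 FPKM to 0.489 ± 0.162 and 0.306 ± 0.0383 (SD, n = 3), with log2 changes of FPKM + 1 of -0.29 and -0.48 and log2 ratios of the mean FPKM of -0.75 and -1.42 (adjusted p = 0.020 and 0.00123, limma). GSDMD, the pore protein through which IL-1 beta leaves cells, fell at 20 mM (-0.32, adjusted p = 0.0344, limma). Calpain subunits, linked to the cutting of IL-1 alpha, were abundant and had values near the control, for example 131 ± 7.31, 130 ± 6.85 and 130 ± 4.51 FPKM for CAPN2.

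All 16 genes of IL-1 receptor signalling were tested, and 3 rose and 2 fell at 10 mM, with 6 and 4 at 20 mM. Those that rose at both doses were TRAF6, a ubiquitin ligase (0.40 and 0.44), IKBKG, the regulatory subunit of the IKK complex (0.49 and 0.65), and TOLLIP, known to restrain IRAK1 (0.25 and 0.40). IRAK1 and the adaptor MYD88 rose at 20 mM by 0.17 and 0.19, as did UBE2V1 (0.22). UBE2N, the ubiquitin-conjugating partner of TRAF6, and the kinase CHUK fell at both doses (-0.35 and -0.29 at 20 mM), and the kinases IRAK3 and IRAK4 fell at 20 mM (-0.35 and -0.30). The pseudocount of 1 shrinks these values for genes at low FPKM, in both directions. At 20 mM IRAK3 went from 0.558 to 0.221 FPKM, a log2 ratio of the means of -1.34, and IRAK4 from 2.09 to 1.52 FPKM, a ratio of -0.47. Among genes that rose, the log2 ratios of the means at 20 mM were 0.64 for TRAF6, 0.90 for IKBKG and 0.66 for UBE2V1. Members moved in both directions, and the median log2 change of the list was 0.04 at 10 mM and 0.01 at 20 mM.

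Of 11 genes of signalling by receptors of colony-stimulating factors, SOCS3, a feedback inhibitor of JAK and STAT signalling, fell from 14.3 ± 0.917 to 9.31 ± 0.716 and 9.21 ± 0.541 FPKM (SD, n = 3; log2 change -0.57 and -0.58). STAT3 (-0.28 and -0.29) and the adaptor GRB2 (-0.19 and -0.16) also fell at both doses. The docking protein GAB2 rose at both doses (0.50 and 0.55), and SHC1 rose at 20 mM (0.31). STAT5A and STAT5B, which act below the CSF2 receptor, did not pass the test.

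The last list had 10 tested genes of RNA-binding proteins that act on inflammatory messages, 8 known for binding AU-rich elements, and ZC3H12A and RC3H1, which recognise stem-loops in the 3′ untranslated region instead. ZC3H12A (regnase-1), an endonuclease, fell most, from 36.2 ± 0.722 FPKM to 22.4 ± 2.26 and 15.6 ± 0.604 (SD, n = 3; log2 change -0.68 and -1.17, adjusted p = 0.000130 and 2.72e-06, limma). ELAVL1 (HuR), known to stabilize such messages, fell by 0.38 at both doses, HNRNPD (AUF1) by 0.44 and 0.58, and KHSRP, a decay factor, by 0.27 and 0.28. ZFP36L1, a decay factor, rose at 20 mM (0.46, adjusted p = 0.0108, limma), whereas ZFP36 (tristetraprolin) had a log2 change of -0.07 and -0.18 and did not pass the test. Stabilizing and destabilizing proteins were thus both among those that fell.

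Of the calls in these lists, 6 of 7 higher and 7 of 11 lower at 10 mM, and 9 of 14 higher and 9 of 14 lower at 20 mM, held in all 17 alternative fits. Those that did not were TOLLIP, CASP1, CHUK, GRB2 and STAT3 at 10 mM, and KITLG, IL1RL2, MYD88, IRAK1, UBE2V1, CHUK, IRAK4, GRB2, STAT3 and GSDMD at 20 mM, with a highest adjusted p over the alternatives between 0.0548 and 0.312 (limma).

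**Figure D4:**
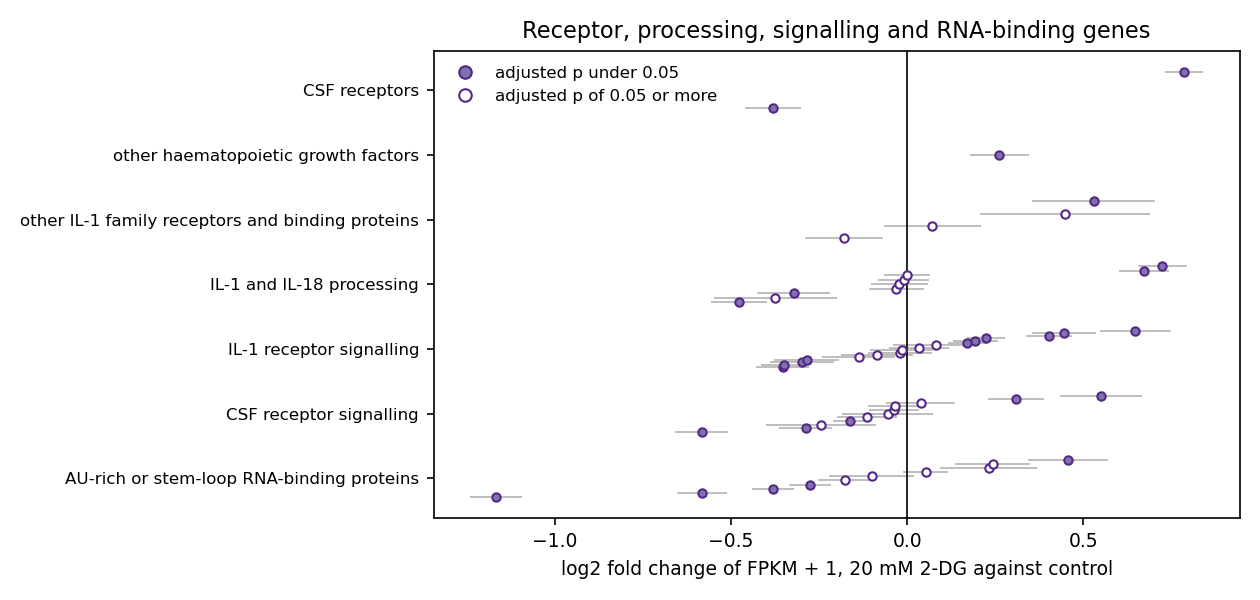
Log2 fold change of FPKM + 1 at 20 mM 2-DG against the control for the 53 tested genes of the lists, 1 point per gene with its standard error; filled points have an adjusted p under 0.05. Filled points lie on both sides of 0 in the signalling and processing lists, and the point farthest to the left, at -1.17, is ZC3H12A.

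For CSF2, CSF3 and IL1B, the 3 genes past 2-fold, the protein-coding genes with the most similar profile over the 9 libraries were sought by the root mean square difference of centred log2(FPKM + 1) among 13110 genes. CSF2 was closest to IL6 (0.12), the acute-phase gene SAA2 (0.127) and PIMREG (0.135). CSF3 was closest to IL6 (0.179), CSF2 (0.183) and the neutrophil chemokine CXCL1 (0.200). IL1B was closest to the mitotic kinase gene PBK (0.136), the prostaglandin E synthase gene PTGES (0.147) and the kinetochore gene NDC80 (0.168). Pearson's r lay between 0.981 and 0.996 for these genes, across 9 libraries that share the same 3 dose groups. IL6 itself read 48.5 ± 2.81, 12.3 ± 0.944 and 8.22 ± 0.786 FPKM (SD, n = 3).

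The tested genes next to CSF3 on the chromosome did not show changes of its size. PSMD3, below CSF3, fell by 0.41 and 0.31 (adjusted p = 0.00413 and 0.0120, limma), and MED24, above it, had log2 changes of -0.16 and -0.07 and did not pass the test. IL3, next to CSF2, was listed at 0 in all libraries. AHCYL1, above CSF1, fell by 0.39 and 0.47 (adjusted p = 0.0124 and 0.00377, limma), close to the values of CSF1 itself. PSD4, above IL1RN, rose by 0.23 and 0.34 (adjusted p = 0.0392 and 0.00512, limma), and SDHD, below IL18, had log2 changes of 0.10 and -0.13 and did not pass the test. IL1R1 and IL1RAP share 11 and 535 exon bases with IL1R1-AS1 and AC108747.1, both listed at 0.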

How the data were processed

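Total RNA of 9 MDA-MB-231 libraries was sequenced by the authors, who deposited 1 table of FPKM values per library. The submitters' processing notes name GRCh38 and hg38, and the aligner, the counter and the annotation release are not given in the sources used here. The authors called differential genes with DESeq2, which needs counts, so limma 3.58.1 in R 4.3.3 was used here on log2(FPKM + 1), with a trend, all 9 libraries in 1 fit, no replicate block, a two-sided moderated test and Benjamini-Hochberg adjustment. Library totals between 30974968 and 40843638 were first estimated from the FPKM values and the annotated exon lengths. At the annotated length, 16144 genes (49.2% of those above 0) then gave whole reads (tolerance 0.002 reads). For the other genes a length that gave whole reads was searched for, which brought the count to 32805 of 32806 genes above 0. Such a search can succeed by construction for genes above 0 in few libraries, so it is no check of the reads of those genes. Whether reads or fragments were counted is not known, and a factor common to reads and length cannot be seen. The filter kept 16565 genes that had 15 or more reads in total and, scaled to the median library, 10 or more in 3 or more libraries. The fit was also run on simulated reads with a fixed spread and changes only in well-covered genes. That run says nothing about genes with few reads. The 20 mM tables carry more decimals than the other 6, so how these tables were written and the 20 mM group cannot be told apart.

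Members, lists and motifs were chosen with earlier results of these data known. Named genes are the members, listed pathway genes, the 3 most similar protein-coding genes of each member past 2-fold and the nearest annotated genes. Of the nearest genes, those tested are named, with IL3. Replicates correlated at r between 0.989 and 0.996 and differed by more than sampling noise (chi-square per gene from 4.76 to 59.1). Python 3.11.15, pandas 2.3.3 and GENCODE release 29 were used for reads, positions and 3′ untranslated regions. Scaling, filters, pseudocount, thresholds, limma-voom and left-out libraries were varied.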

Additional observations from a re-analysis of the deposited data

How the results depend on the processing

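The 3 members called lower at each dose were called under each alternative fit, and CSF1 joined them at 20 mM at a 1.5-fold threshold (4 genes). Between the doses 0 members were called lower, against 1 (CSF3) with limma-voom run on recovered reads, 1 (CSF3) with a pseudocount of 0.1 and 2 at a 1.5-fold threshold. The CSF3 change at 20 mM was -3.91 with a pseudocount of 0.1 and -4.11 with limma-voom, and the shift of its log2 ratio to CSF1 was -3.31 instead of -3.53, and to CSF2 -1.46 instead of -1.68, with 0.1 added to both terms. Of 213 member changes under alternatives that kept all libraries 17 moved by more than 1 SD. Pathway genes called higher at 10 mM numbered 7, against 11 with median-ratio factors, 11 with upper-quartile factors, 11 at an unadjusted p under 0.05 and 6 to 12 with 1 library left out (12 without 10 mM replicate 2). Of the 28 calls in these lists at 20 mM, 3 to 8 were lost when 1 control or 20 mM library was left out (most without control replicate 3 and without 20 mM replicates 1 and 3), and of the 18 at 10 mM 1 to 4 (most without control replicate 3). Those called lower at 20 mM numbered 14, against 9 with upper-quartile factors. Between the doses 0 and 0 were called, against 3 higher and 2 lower at an unadjusted p, and 0 to 1 lower with 1 library left out (1 without 10 mM replicate 1). Over all genes the calls past 2-fold at 20 mM were 160 higher and 324 lower, against 621 and 866 with a pseudocount of 0.1, 925 and 1192 with limma-voom, and 674 and 1107 at 1.5-fold. At 10 mM they were 96 and 192, against 438 and 566, 729 and 857, and 474 and 765.

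Same-numbered libraries showed no consistent correlation in their deviations from the group means (r from -0.406 to 0.293). Whether they were handled together is not stated, and these correlations cannot show it. With a replicate block 3 members were again lower at each dose, and the pathway counts were 7 higher and 10 lower at 10 mM and 12 and 11 at 20 mM. IL1RN is limited by its few reads, 1 to 19 per library, and by their spread between the control libraries.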
